A study of Rattus norvegicus with 30 samples.

Results

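The genes that make cholesterol and fatty acids were followed in rat testes as they matured and in pieces of immature testis kept in organotypic culture. They are 33 genes, taken by symbol through the Entrez Gene identifiers of the deposited table, of 17322 genes measured. By role, 7 build isoprenoids in the mevalonate arm, 11 lead from squalene to cholesterol, 6 sense or carry sterols and 9 make fatty acids or glycerolipids. Values were fragments per kilobase scaled to mapped reads (FPKM), so the number of reads behind a value is unknown. The groups in vivo were testes of uncultured Wistar Han rats at 6 ages, given in days postpartum (dpp), which ran from 8.5 and 14.5 dpp through 24.5, 30.5 and then 36.5 dpp to 53.5 dpp, each replicate from different rats. The groups in vitro were testes of Wistar Han rats of 8.5 dpp, cut into fragments and kept on agarose at the gas–liquid interface in culture, named by day as D6, D16, D22 or D28. The medium was αMEM with Knock-out serum replacement, retinol and vitamin E. By age, D6 therefore corresponds to testes of 14.5 dpp, D16 to 24.5 dpp, D22 to 30.5 dpp and D28 to 36.5 dpp. Each cultured library pooled 12 explants whose necrotic centre had been cut away, so p-values measure the spread between such pools or between testes. Groups had 3 libraries, except 14.5 dpp with 2. The study excluded a testis of that age because its expression profile differed from those of the other replicates. In the deposited table that testis is listed at 0 for all 17322 genes. The 29 libraries used had 12520 to 13563 genes above 0, and 32 of the 33 genes had a mean of at least 0.5 FPKM in some group. Elovl6, a fatty acid elongase, is listed at 0 in every library. Lss, lanosterol synthase, is listed at 0 in all 12 culture libraries and reached no more than 1.24 FPKM in vivo.

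Cells make cholesterol from acetyl-CoA by way of mevalonate, farnesyl diphosphate and squalene, and make fatty acids from the same acetyl-CoA through malonyl-CoA. Both routes answer to the sterol regulatory element-binding proteins encoded by Srebf1 and Srebf2. Scap escorts these proteins out of the endoplasmic reticulum when membrane sterol is low, and Insig1 and Insig2 hold Scap back when it is high. The freed proteins switch on synthesis genes, and Insig1 is itself among their targets. In the testis, Leydig cells turn cholesterol into androgens, and Sertoli and germ cells build membranes and long-chain fatty acids.

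Promoters are shown for the 6 genes that were higher at D6 than at both 8.5 and 14.5 dpp and lower again at D16, and for Srebf1, which was high at D6 and was not called lower at D16. Each run is the 250 bases before the first listed start of the gene in RefSeq, on the rat build GRCr8, written 5′ to 3′ on the strand of the gene. Capitals mark each NF-Y box, CCAAT on either strand (ATTGG), the site of a factor known to act together with sterol regulatory proteins. The windows are chr4:30991443-30991692 (+) for Cyp51, chr2:176804817-176805066 (-) for Fdps, chr4:8057770-8058019 (-) for Insig1, chr16:29746863-29747112 (+) for Msmo1, chr1:253231732-253231981 (-) for Scd, chr1:212789542-212789791 (-) for Tm7sf2 and chr10:45529165-45529414 (-) for Srebf1.
Cyp51: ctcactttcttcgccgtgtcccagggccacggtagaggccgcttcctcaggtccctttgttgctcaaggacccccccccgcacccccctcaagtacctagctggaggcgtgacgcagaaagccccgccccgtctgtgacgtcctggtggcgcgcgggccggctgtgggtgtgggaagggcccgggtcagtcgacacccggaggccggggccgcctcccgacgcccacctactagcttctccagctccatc
Fdps: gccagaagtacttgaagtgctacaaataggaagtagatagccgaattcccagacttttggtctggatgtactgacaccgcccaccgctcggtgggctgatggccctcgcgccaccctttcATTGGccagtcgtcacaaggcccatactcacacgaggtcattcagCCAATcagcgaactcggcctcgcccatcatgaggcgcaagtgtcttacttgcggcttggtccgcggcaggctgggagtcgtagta
Insig1: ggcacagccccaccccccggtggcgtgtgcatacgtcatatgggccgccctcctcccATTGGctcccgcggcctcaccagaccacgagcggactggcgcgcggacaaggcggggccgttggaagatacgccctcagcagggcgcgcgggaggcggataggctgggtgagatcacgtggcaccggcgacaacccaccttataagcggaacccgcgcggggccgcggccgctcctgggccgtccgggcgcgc
Msmo1: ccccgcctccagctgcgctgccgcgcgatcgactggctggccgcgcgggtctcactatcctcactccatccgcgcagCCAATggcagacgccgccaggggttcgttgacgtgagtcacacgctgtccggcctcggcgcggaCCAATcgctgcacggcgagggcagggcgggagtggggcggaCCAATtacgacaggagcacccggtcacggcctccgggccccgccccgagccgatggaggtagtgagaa
Scd: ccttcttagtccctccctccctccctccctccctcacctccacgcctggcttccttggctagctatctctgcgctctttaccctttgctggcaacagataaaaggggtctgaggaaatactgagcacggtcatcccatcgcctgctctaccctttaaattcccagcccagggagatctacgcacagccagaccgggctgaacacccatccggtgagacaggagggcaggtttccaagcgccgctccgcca
Tm7sf2: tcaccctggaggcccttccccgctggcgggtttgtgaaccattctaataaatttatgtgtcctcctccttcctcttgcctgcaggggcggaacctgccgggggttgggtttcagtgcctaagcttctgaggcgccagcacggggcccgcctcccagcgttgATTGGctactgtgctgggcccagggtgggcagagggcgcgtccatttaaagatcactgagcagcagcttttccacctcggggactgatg
Srebf1: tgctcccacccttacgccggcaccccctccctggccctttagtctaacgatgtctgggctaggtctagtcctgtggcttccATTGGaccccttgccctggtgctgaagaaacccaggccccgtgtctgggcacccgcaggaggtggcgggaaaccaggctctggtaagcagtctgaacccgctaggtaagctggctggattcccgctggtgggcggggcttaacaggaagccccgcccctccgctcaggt

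RefSeq gave such a window for 26 of the 33 genes, with none for Sqle, Fdft1, Pmvk, Stard4, Fasn, Acaca and Elovl6. The NF-Y box was in 19 of the 26 windows (73.1%), against 34.3% of all 27457 promoters of the same length and 35.5% of the promoters of expressed genes. Among the promoters shown, Msmo1 held 3 boxes, Fdps 2, Insig1, Tm7sf2 and Srebf1 1 each, and Cyp51 and Scd 0. The GC box GGGCGG was in 21 windows (80.8%, against 32.4% of all and 55.2% of expressed genes). The E-box CACGTG was in 3, those of Insig1, Sc5d and Scap (11.5%, against 5.79% and 8.15%). A sterol regulatory element core, written TCACNCCAC, was in 0 of the 26 windows and in 0.976% of all promoters. All 4 motifs were read on both strands, and none contains another. A match or its absence describes these letters only.

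The genes took 0.258% ± 0.00788 of all summed FPKM at 8.5 dpp and 0.372% ± 0.0427 at 14.5 dpp. The share was 0.156% ± 0.00631 at 53.5 dpp, below every younger group but 36.5 dpp, whose libraries it overlapped. In culture it was 0.544% ± 0.0434 at D6 and 0.356% ± 0.0590 at D28 (SD, n = 2 or 3). D6 had the highest group mean of the 4 culture times for 24 of 32 genes, and of all 10 groups for 22. These counts of highest means were not made over all genes. For 16 of 32 genes every D6 library was above every library of the other 9 groups, which held for 1.33% of all expressed genes.

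**Figure D1:**
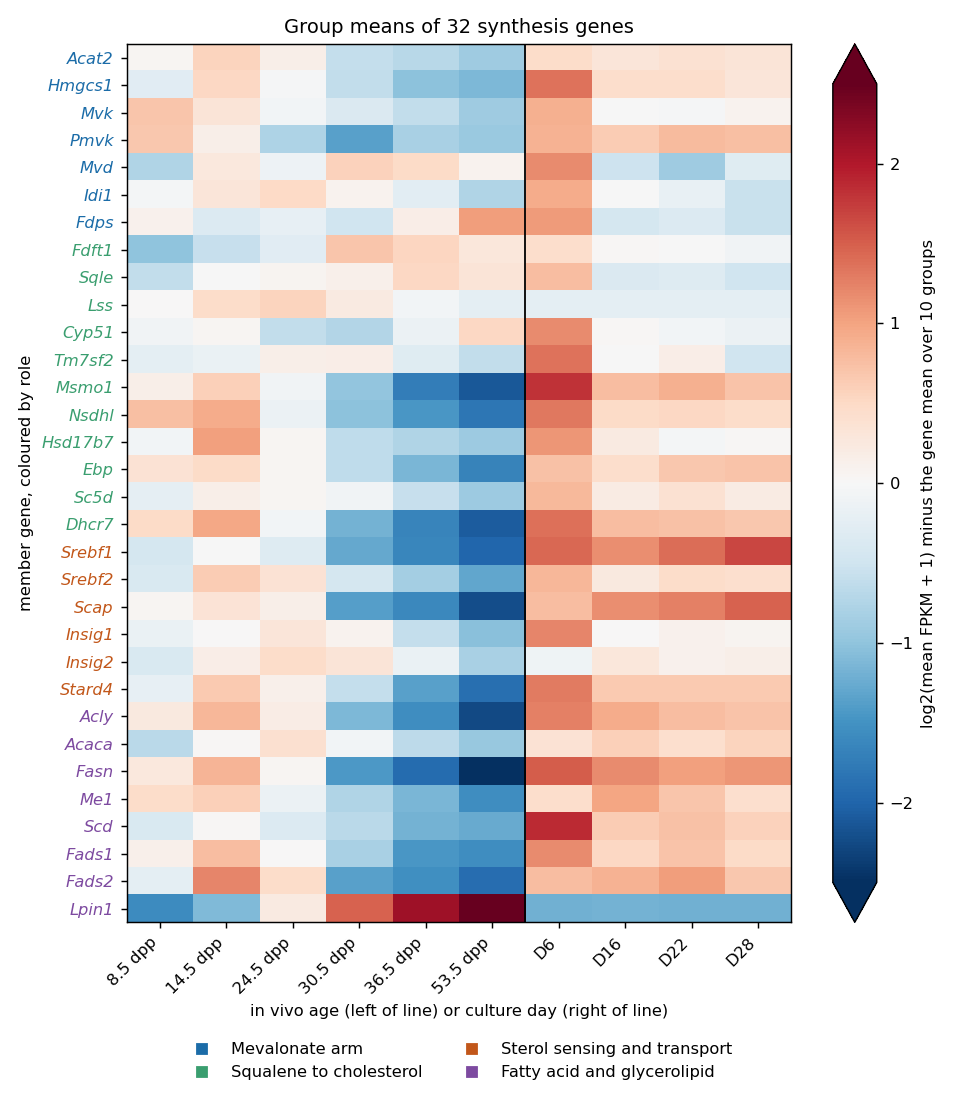
Heat map of the 32 genes with a mean of at least 0.5 FPKM in some group (rows, coloured by role) over the 6 in vivo ages and the 4 culture times (columns). Colour is log2 of the group mean (FPKM + 1) minus the mean of that gene over the 10 groups, and the D6 column is the reddest for most rows while Lpin1 is red in the testes from 24.5 dpp on.

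The first comparison asked how the genes stood after 6 days of culture, against testes of 8.5 dpp, the age at which culture began. Of 31 genes tested, 20 were higher at D6 and 0 were lower (limma, with 0 lower at an unadjusted p under 0.05 as well). Over all genes the shares were 9.89% higher and 6.39% lower. The median log2 difference of the genes was 1.04, against 0.05 for all genes tested. Genes were called at an adjusted p of at most 0.05 (limma, Benjamini-Hochberg over all genes) and a 2-fold ratio between the medians of the groups. Differences are on the log2(FPKM + 1) scale, which understates those of low genes. Since explants of D6 are also 6 days older than the tissue they came from, age and culture cannot be told apart here.

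In the mevalonate arm, 4 of 7 genes rose. Hmgcs1, which makes HMG-CoA, was at 46.1, 50.5 and 49.8 FPKM at 8.5 dpp and at 172, 168 and 126 FPKM at D6, a log2 difference of 1.63 ± 0.13 (SE, adjusted p = 0.00014). Mvd, the decarboxylase that gives isopentenyl diphosphate, was at 4.47, 3.51 and 5.43 FPKM and then at 20.0, 18.1 and 21.6 FPKM, a difference of 1.95 ± 0.14 (SE, adjusted p = 9.2e-05). The lowest D6 library was above the highest 8.5 dpp library for both. Fdps, which makes farnesyl diphosphate, was at 68.3, 76.6 and 107 FPKM and at 156, 189 and 148 FPKM, with a difference of 0.98 ± 0.18 (SE, adjusted p = 0.0043) and no overlap between the groups. Idi1, the isomerase before it, was at 22.2, 24.8 and 27.6 FPKM and at 55.9, 56.1 and 36.3 FPKM, a difference of 0.94 ± 0.18 (SE, adjusted p = 0.0053). Both lie near the 2-fold limit, and their calls were lost in some fits that left out a library, namely Fdps without 8.5 dpp replicate 1 or 2 or D6 replicate 2 (0.85 to 0.93 on the log2 scale) and also with median-ratio scaling (0.93), and Idi1 without D6 replicate 1 or 2 (0.84 each). Acat2, Mvk and Pmvk, the thiolase and the pair of mevalonate kinases, differed by 0.41, 0.20 and 0.20 and were not called.

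From squalene to cholesterol, 7 of 10 genes rose. Fdft1, squalene synthase, was at 26.7, 30.7 and 33.9 FPKM at 8.5 dpp and at 91.0, 89.3 and 73.2 FPKM at D6, a difference of 1.44 ± 0.13 (SE, adjusted p = 0.00018). Sqle, squalene epoxidase, went from 15.8, 15.8 and 21.3 to 52.2, 49.1 and 41.1 FPKM, a difference of 1.39 ± 0.15 (SE, adjusted p = 0.00038). Every D6 library of both genes lay above every 8.5 dpp library. Cyp51, the lanosterol demethylase, was at 24.9, 28.5 and 29.9 FPKM and then at 73.8, 76.6 and 54.4 FPKM, a difference of 1.26 ± 0.15 (SE, adjusted p = 0.0006). Msmo1, a methylsterol oxidase, was at 32.5, 38.1 and 36.3 FPKM and then at 131, 127 and 86.7 FPKM, a difference of 1.64 ± 0.17 (SE, adjusted p = 0.00034). In both genes the third D6 library was the lowest of its group and still well above the 8.5 dpp testes. Tm7sf2, a sterol reductase expressed at a low level, went from 1.73, 1.02 and 1.26 to 7.07, 5.22 and 6.13 FPKM, a difference of 1.61 ± 0.14 (SE, adjusted p = 0.00019). Hsd17b7, a keto-sterol reductase, went from 2.98, 3.28 and 4.02 to 9.0, 10.0 and 8.03 FPKM, a difference of 1.18 ± 0.12 (SE). Sc5d, a sterol desaturase, went from 11.6, 13.6 and 12.7 to 27.9, 30.5 and 22.4 FPKM, a difference of 1.03 ± 0.13 (SE) whose call was lost without D6 replicate 2 (0.93). Again no D6 library of these genes was as low as an 8.5 dpp library. Nsdhl, which removes methyl groups from sterols, Ebp, a sterol isomerase, and Dhcr7, the last reductase before cholesterol, with differences of 0.57, 0.38 and 0.91, passed the adjusted p but not the 2-fold ratio. D6 replicate 3 was the lowest of its group in 10 of the 17 sterol enzymes above 0, and 8.5 dpp replicate 1 the lowest in 12 of 18.

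Among the genes that sense or carry sterols, 4 of 6 rose. Srebf1 was at 8.55, 9.32 and 10.5 FPKM at 8.5 dpp and at 32.8, 34.1 and 44.6 FPKM at D6, a difference of 1.86 ± 0.14 (SE, adjusted p = 9.5e-05). Srebf2 was at 17.7, 16.9 and 16.4 FPKM and at 38.2, 40.8 and 41.4 FPKM, a difference of 1.19 ± 0.08 (SE, adjusted p = 6.4e-05). The groups did not overlap in either gene. Srebf1 lies across the coding gene Rai1, as Idi1 does across Wdr37, and although the library kit kept strand, whether strand entered the quantification is not given in the sources used here. Insig1 was at 32, 31.6 and 36.3 FPKM and at 99.2, 93.9 and 74.2 FPKM, a difference of 1.38 ± 0.13 (SE, adjusted p = 0.00022). Stard4, a cytosolic cholesterol carrier, was at 7.03, 8.0 and 7.89 FPKM and at 24.3, 27.4 and 18.4 FPKM, a difference of 1.48 ± 0.15 (SE, adjusted p = 0.0003). Scap differed by 0.72 ± 0.08 (SE, adjusted p = 0.00037), below the 2-fold ratio, and Insig2, the second Insig gene, by 0.27 (95% interval -0.02 to 0.56).

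Of the fatty acid and glycerolipid genes, 5 of 8 rose. Scd, a stearoyl-CoA desaturase, had the largest difference of the 31 genes. It was at 1.56, 1.54 and 1.74 FPKM at 8.5 dpp and at 12.1, 10.6 and 11.5 FPKM at D6, a difference of 2.24 ± 0.09 (SE, adjusted p = 1.1e-05) and a ratio of means of 7.06. Scd2, a paralog with far higher values, was at 564, 569 and 538 FPKM and at 910.5, 951 and 793 FPKM and was not called, with a difference of 0.66. How short reads shared by these paralogs were divided is uncertain. Fasn, fatty acid synthase, was at 52.2, 57.2 and 59.9 FPKM and at 129, 133 and 148 FPKM, a difference of 1.26 ± 0.10 (SE, adjusted p = 0.0001). Acaca, which makes malonyl-CoA, went from 1.72, 1.74 and 2.64 to 4.26, 5.81 and 5.63 FPKM, a difference of 1.04 ± 0.15 (SE). The groups did not overlap in either gene. Fads1, a desaturase of polyunsaturated fatty acids, went from 52.6, 55.2 and 52.0 to 115, 109 and 107 FPKM, a difference of 1.04 ± 0.08 (SE). Fads2, the neighbouring desaturase, went from 33.2, 29.8 and 26.7 to 69.4, 40.2 and 75.7 FPKM, a difference of 0.98 ± 0.23 (SE), with the second D6 library far below the other two. The call of Fads2 was lost without D6 replicate 1 or 3 (0.87 and 0.81), and that of Fads1 with median-ratio scaling (0.99). Acly, which supplies cytosolic acetyl-CoA, went from 28.4, 28.4 and 25.8 to 56.2, 56.7 and 57.8 FPKM and stopped just short of the 2-fold ratio, at 1.998. Me1, malic enzyme, and Lpin1, a phosphatidate phosphatase, differed by -0.01 (95% interval -0.61 to 0.60) and 0.35 (95% interval 0.05 to 0.64).

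**Figure D2:**
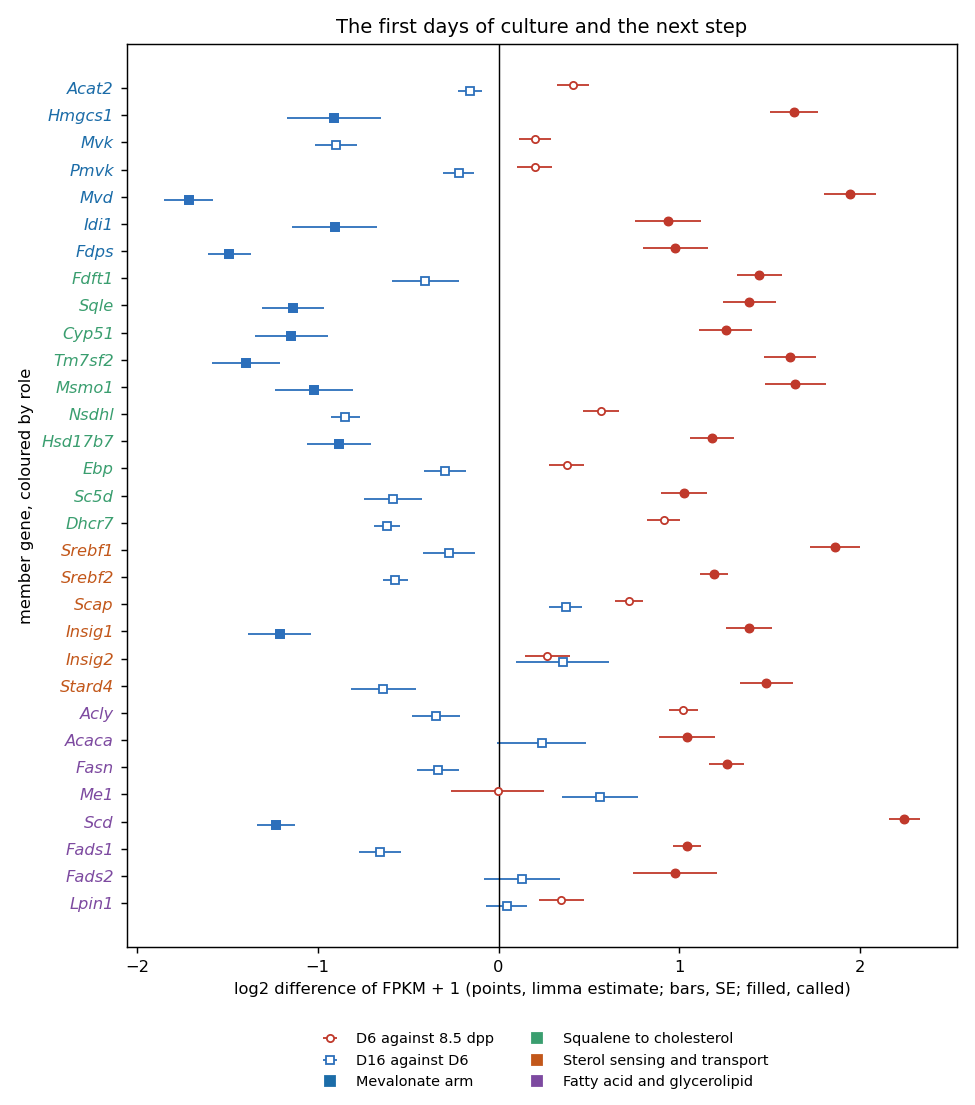
Log2 difference of FPKM + 1 for each of the 31 genes tested between D6 and 8.5 dpp (circles) and between D16 and D6 (squares), with the standard error as a bar and called genes filled. Filled circles, 20 in all, lie to the right of 0, and the 11 filled squares lie to the left, 9 of them among the sterol enzymes.

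Of the other genes of the pathway, 7 of 29 tested rose at D6 against 8.5 dpp and 0 fell (2 were lower by the adjusted p alone), with a median difference of 0.31. They included Aacs, which activates acetoacetate for lipid synthesis, at 5.19, 4.46 and 5.65 FPKM in the testes and 12.3, 11.5 and 13.8 FPKM in culture, a difference of 1.15 ± 0.11 (SE, adjusted p = 0.00025). Its libraries did not overlap between the groups. Markers of other cell types moved too. The summed FPKM of 6 Leydig cell markers was 230.2 to 330.1 at 8.5 dpp and 12.7 to 19.7 at D6, with 4 of 6 called lower. That of 8 Sertoli cell markers was 1474 to 1561 and 1390 to 1640, with 2 called higher and 1 lower. Macrophage markers summed to 27.3 to 41.1 and 43.4 to 54.6 (2 of 5 tested higher, with Cd163 at 0 in all D6 libraries), and endothelial markers to 42.2 to 45.1 and 62.6 to 73.6 (2 of 3 tested higher). Peritubular and smooth muscle markers summed to 388.9 to 467.4 and 138.3 to 268.0, with 3 of 4 called lower, and spermatocyte markers to 16.3 to 17.9 and 24.0 to 29.7 (2 of 3 tested higher). Adipocyte markers summed to 1.29 to 2.34 and 3.32 to 5.80 (of 3 tested, 1 higher and 1 lower), with Lep at 0 in all D6 libraries. Their part in the result was not tested. In whole tissue, fewer cells of a type and less RNA per cell cannot be told apart.

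The second comparison set D6 against testes of the same age, 14.5 dpp. Of 32 genes tested, 8 were higher at D6 and 0 were lower (0 also at an unadjusted p under 0.05 in limma), against 5.57% higher and 2.37% lower over all genes. The median log2 difference was 0.58, against -0.04 for all genes tested. The 8 were Fdps, Fdft1, Cyp51, Tm7sf2, Msmo1, Srebf1, Insig1 and Scd, and 15 genes (9.13% of all genes) were higher by the adjusted p alone. Fdps was at 53.1 and 69.2 FPKM at 14.5 dpp, against 156, 189 and 148 FPKM at D6, a difference of 1.42 ± 0.18 (SE, adjusted p = 0.0072). Insig1 was at 34.6 and 41.5 FPKM at 14.5 dpp, and its difference was 1.20 ± 0.17 (SE, adjusted p = 0.011). Scd was at 2.26 and 2.71 FPKM and Srebf1 at 12.6 and 13.5 FPKM at 14.5 dpp, with differences of 1.83 ± 0.13 (SE, adjusted p = 0.0012) and 1.43 ± 0.17 (SE, adjusted p = 0.0061). For each of these 4 genes both testes lay below every D6 library. Tm7sf2 was at 1.27 and 1.65 FPKM at 14.5 dpp and differed by 1.53 ± 0.16 (SE, adjusted p = 0.0041). Cyp51, at 28.8 and 32.4 FPKM at 14.5 dpp, differed by 1.12 ± 0.18 (SE, adjusted p = 0.016). Msmo1, at 45.6 and 51.9 FPKM, differed by 1.20 ± 0.21 (SE, adjusted p = 0.019) and Fdft1, at 33.9 and 48.6 FPKM, by 1.03 ± 0.19 (SE, adjusted p = 0.023). Their D6 libraries were likewise above both testes. Over all 32 genes, D6 was above both testes for 24, against 23.8% of all genes.

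Of the 20 genes higher at D6 than at 8.5 dpp, 12 were not called against 14.5 dpp, the sterol enzymes Hmgcs1 and Mvd and the regulator Srebf2 among them. Hmgcs1 was at 72.9 and 98.9 FPKM at 14.5 dpp and differed by 0.85 ± 0.20 (SE, adjusted p = 0.042), with a ratio of medians of 1.95. Mvd was at 9.55 and 10.6 FPKM at 14.5 dpp and differed by 0.92 ± 0.13 (SE, adjusted p = 0.011), also below the 2-fold ratio. Srebf2, at 36.9 and 33.7 FPKM at 14.5 dpp, differed by 0.18 (95% interval -0.11 to 0.47), and Acaca by 0.34 (95% interval -0.18 to 0.87). Fasn, at 76.5 and 95.8 FPKM, differed by 0.67 (95% interval 0.31 to 1.03), and Fads2, whose D6 libraries spread from 40.2 to 75.7 FPKM, by -0.46 (95% interval -1.23 to 0.30). Of the other genes of the pathway, 3 of 29 rose, among them Mylip, a ubiquitin ligase, by 0.95 ± 0.12 (SE). The count of 8 rests on few libraries. It was 4 without D6 replicate 1, where Fdft1, Cyp51, Msmo1 and Insig1 had adjusted p-values of 0.050 to 0.086, and 5 without 14.5 dpp replicate 1. Cyp51 and Msmo1 also lost their calls without 14.5 dpp replicate 1 or 2 or D6 replicate 2, and Fdft1 without 14.5 dpp replicate 1 or D6 replicate 2 or 3. Leydig cell markers summed to 145 to 306 FPKM at 14.5 dpp, and all 6 were called lower at D6. In contrast, 4 of 5 macrophage and 3 of 3 endothelial markers tested were called higher, and 0 of 8 Sertoli cell markers higher and 1 lower. Their part in the result was not tested.

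**Figure D3:**
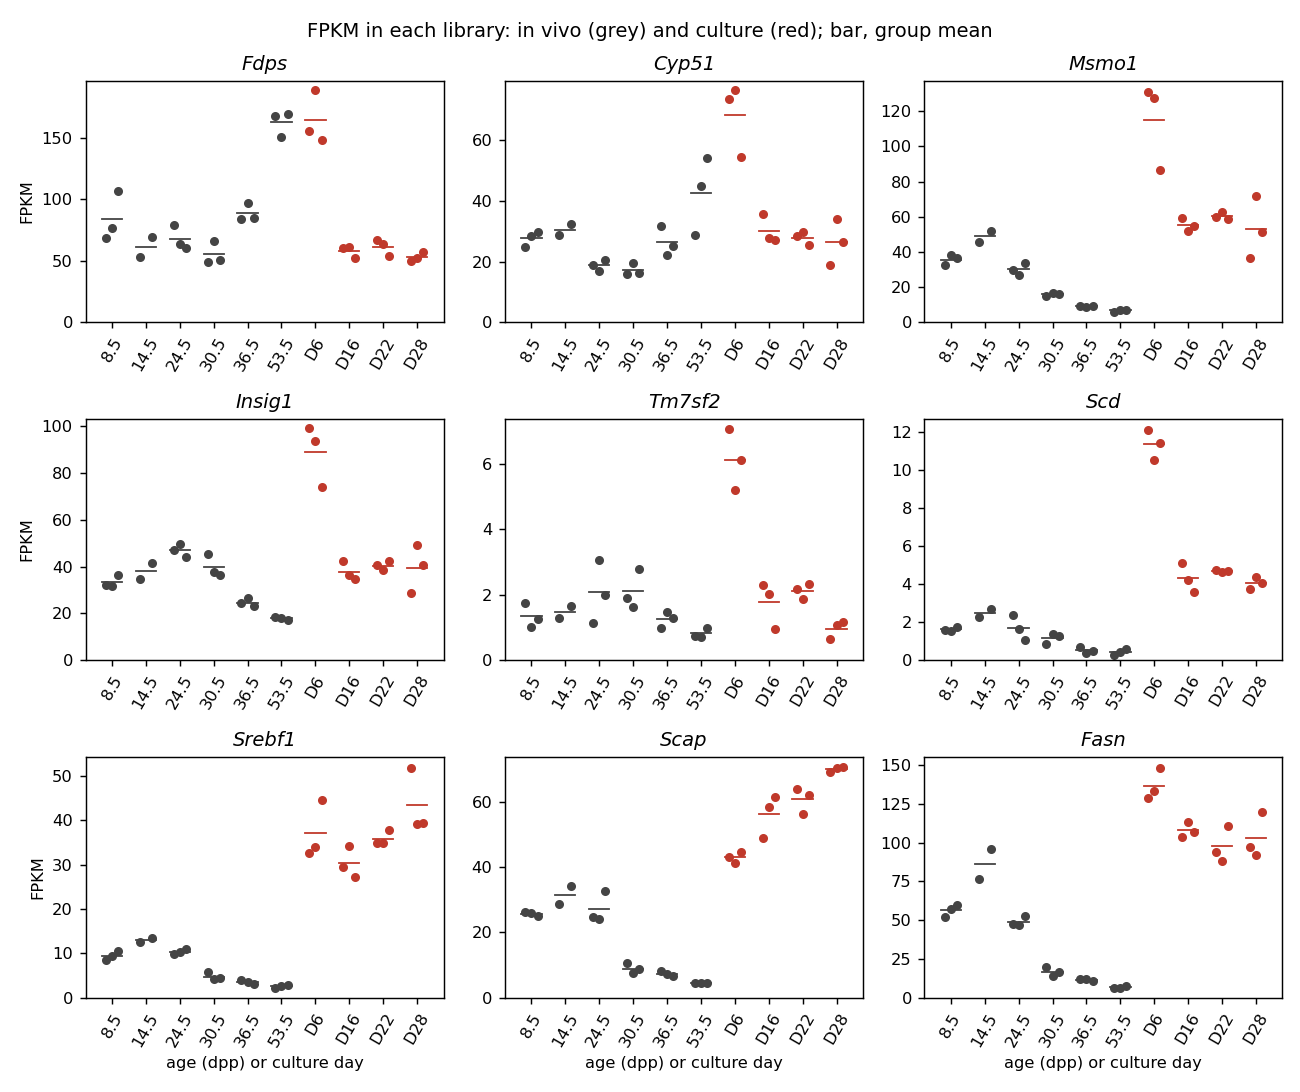
FPKM of 9 genes in each of the 29 libraries, with in vivo ages in grey, culture times in red and the group mean as a bar. The first 6 genes are high at D6 and lower from D16 on, whereas Srebf1, Scap and Fasn stay above all in vivo libraries from D16 to D28 apart from the overlap of Fasn with 14.5 dpp.

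Within culture, 11 of 31 genes were lower at D16 than at D6 and 0 were higher (limma, with 2 higher at an unadjusted p under 0.05), against 1.69% lower and 1.31% higher over all genes. The median difference was -0.62, against -0.02 for all genes tested. By role, 4 of 7 genes of the mevalonate arm fell, 5 of 10 from squalene to cholesterol, 1 of 6 that sense or carry sterols and 1 of 8 of the fatty acid and glycerolipid genes. All 11 were among the 20 that were higher at D6 than at 8.5 dpp. Both comparisons use the same D6 libraries, so the count of shared genes is a description. Fdps was at 60.2, 61.0 and 51.9 FPKM at D16 and fell by 1.49 ± 0.12 (SE, adjusted p = 6.1e-05) on the log2 scale, and Mvd, at 4.90, 5.27 and 5.96 FPKM, fell by 1.71 ± 0.14 (SE, adjusted p = 6.1e-05). Cyp51, at 35.7, 27.8 and 27.1 FPKM, fell by 1.15 ± 0.20 (SE, adjusted p = 0.0047), and Sqle, at 24.7, 20.6 and 18.0 FPKM, fell by 1.14 ± 0.17 (SE, adjusted p = 0.0023). Every D16 library of these 4 enzymes was below every D6 library. Those of Fdps were below every 8.5 dpp library too, and those of Mvd, Cyp51 and Sqle overlapped the 8.5 dpp range. Insig1, at 42.2, 36.4 and 34.7 FPKM, fell by 1.21 ± 0.17 (SE, adjusted p = 0.0018). Tm7sf2, at 2.31, 2.03 and 0.961 FPKM, fell by 1.40 ± 0.19 (SE, adjusted p = 0.0012). Scd, at 5.13, 4.21 and 3.60 FPKM, fell by 1.23 ± 0.10 (SE, adjusted p = 8.8e-05) but still lay above both 14.5 dpp testes. Msmo1, at 59.3, 52.1 and 54.7 FPKM, and Hsd17b7, at 5.26, 4.05 and 4.00 FPKM, fell by 1.02 ± 0.21 (SE, adjusted p = 0.011) and 0.88 ± 0.18 (SE, adjusted p = 0.0087). Hmgcs1 and Idi1 fell by 0.91 ± 0.26 (SE, adjusted p = 0.039) and 0.91 ± 0.24 (SE, adjusted p = 0.027). The call of Msmo1 was lost without D6 replicate 1 or 2 (-0.91 and -0.93) and that of Hsd17b7 without D16 replicate 2 or 3 (-0.84 and -0.83). Those of Hmgcs1 and Idi1 depend on single libraries, since leaving out any D6 or D16 library raised the adjusted p of Hmgcs1 to between 0.0537 and 0.112, and that of Idi1 to over 0.05 for 5 of the 6. Without D6 replicate 1 or 2, 8 genes were called lower.

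Not all genes that were high at D6 came down. Srebf1 was at 29.6, 34.3 and 27.3 FPKM at D16 and differed from D6 by -0.27 (95% interval -0.59 to 0.04). Scap was at 43.2, 41.3 and 44.7 FPKM at D6 and 49.0, 58.3 and 61.3 FPKM at D16, a difference of 0.37 ± 0.09 (SE, adjusted p = 0.022) that was below the 2-fold ratio. Every D16 library of Scap was above every D6 library, and Srebf1 overlapped. Fasn, at 104, 113 and 107 FPKM at D16, differed by -0.34 (95% interval -0.59 to -0.08), Acaca by 0.24 (95% interval -0.30 to 0.78) and Fads2 by 0.13 (95% interval -0.34 to 0.60). Me1 was not among the genes high at D6, where its libraries overlapped those of 8.5 and 14.5 dpp. It was at 217, 165 and 139.9 FPKM at D6 and 280.4, 242 and 239 FPKM at D16, a difference of 0.56 (95% interval 0.09 to 1.03). Among the other genes of the pathway, 2 of 29 tested fell and 0 rose (1 was higher by the adjusted p alone).

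After D16 the genes moved little. Between D16 and D22, 0 genes were called (0.264% of all genes), and between D22 and D28 again 0 (0.00880%), with 1 gene higher and 1 lower at an unadjusted p under 0.05 in limma each time. At D28 against D6, 11 genes were lower and 0 higher (1 higher at an unadjusted p under 0.05), against 2.65% lower and 3.04% higher over all genes. Srebf1 was at 51.9, 39.2 and 39.5 FPKM at D28, a difference from D6 of 0.23 (95% interval -0.09 to 0.54), and Scap at 69.0, 70.3 and 70.5 FPKM, a difference of 0.69 ± 0.09 (SE, adjusted p = 0.00054). Over all 4 times 12 of 31 genes changed in an F test with a 2-fold range, the 11 named above and Mvk, against 6.71% of all genes. Of the other genes of the pathway, 3 of 29 did. Taken by role over the genes called at D6, the median log2 difference from 8.5 dpp in the mevalonate arm was 1.31 at D6, 0.13 at D16 and -0.05 at D28 (4 genes). From squalene to cholesterol it was 1.39, 0.29 and 0.11 (7 genes). Among the genes that sense or carry sterols it was 1.43, 0.73 and 0.81 (4 genes), and among the fatty acid genes 1.04, 1.01 and 0.91 (5 genes). The genes were chosen on the D6 value, so these medians are a description. The fatty acid medians come from different genes at each time. Against 8.5 dpp, Scd, Fads1 and Fasn were at 2.24, 1.04 and 1.26 at D6 and at 0.95, 0.33 and 0.85 at D28. Acaca and Fads2 were at 1.04 and 0.98 at D6 and at 1.17 and 0.91 at D28. D28 replicate 1 was the lowest library of its group for 20 of 31 genes, 11 of them among 17 sterol enzymes, as in Hmgcs1 at 44.5, 104 and 73.6 FPKM. Between D6 and D16, 1 of 8 Sertoli cell markers was called higher and 1 lower, 0 of 4 endothelial and 0 of 5 macrophage markers were called, and 2 of 4 peritubular markers were called lower. Their part in the result was not tested.

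**Figure D4:**
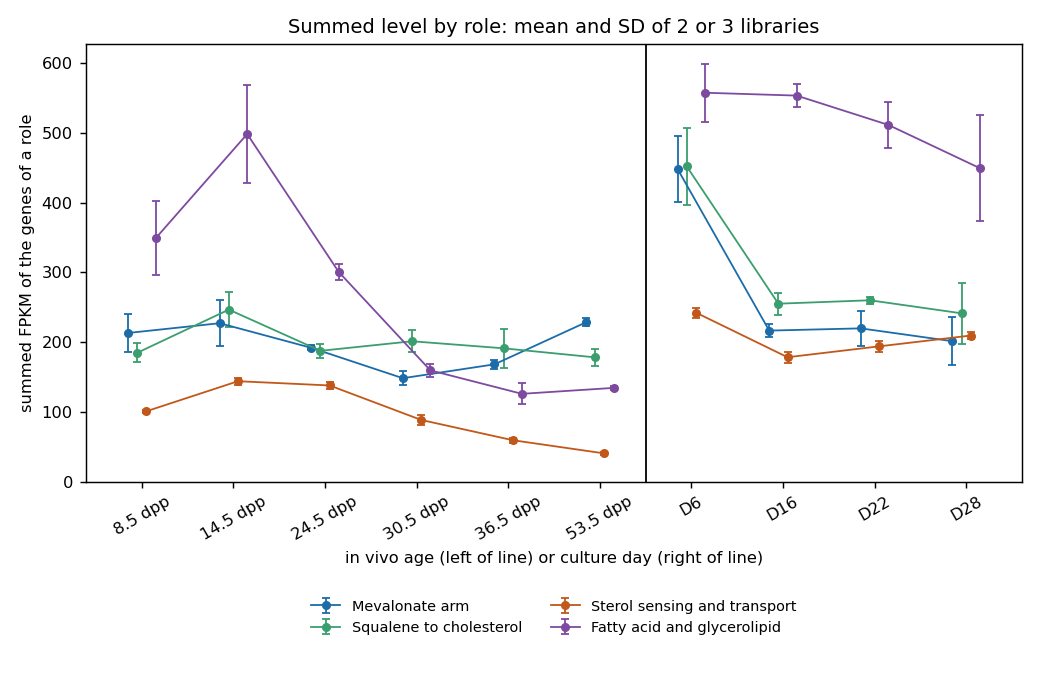
Summed FPKM of the genes of each role, as the mean and SD of 2 or 3 libraries, over in vivo age (left of the line) and culture day (right of the line). The mevalonate and squalene sums were 448 ± 47.1 and 452 ± 55.2 at D6 and 217 ± 9.24 and 255 ± 15.8 at D16, while the fatty acid sum was 558 ± 41.9 and 554 ± 16.9. Within the fatty acid sum genes moved in opposite directions. Every D6 library lay below every D16 library for Me1 and Acaca (ratios of means 0.686 and 0.828). Every D6 library lay above for Scd, Fads1, Acly and Fasn (2.641, 1.582, 1.271 and 1.265), and Fads2 and Lpin1 overlapped.

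The study set D16, D22 and D28 against the immature 14.5 dpp testes, and these 3 comparisons share the same 2 control testes. Few of the genes were called. Of 32 tested, 2 were called at D16, 3 at D22 and 3 at D28, against 11.9%, 12.9% and 13.6% of all genes. The median differences of the genes were -0.03, -0.05 and -0.20, and those of all genes tested -0.05, -0.05 and -0.08. Srebf1 was higher each time, at 29.6, 34.3 and 27.3 FPKM at D16, 34.9, 34.9 and 37.9 at D22 and 51.9, 39.2 and 39.5 at D28, against 12.6 and 13.5 FPKM at 14.5 dpp. Its differences were 1.16 ± 0.14 (SE, adjusted p = 0.00038), 1.39 ± 0.14 (SE, adjusted p = 0.00012) and 1.65 ± 0.14 (SE, adjusted p = 4.4e-05). Scap, at 28.7 and 34.2 FPKM at 14.5 dpp, was called at D28 with a difference of 1.13 ± 0.12 (SE, adjusted p = 0.00012), and its differences of 0.82 at D16 and 0.93 at D22 were below the 2-fold ratio. All 9 culture libraries of both genes lay above the testes. Hsd17b7 was lower each time. It was at 7.29 and 9.61 FPKM at 14.5 dpp, 5.26, 4.05 and 4.00 at D16, 3.73, 2.76 and 3.99 at D22 and 3.40, 2.77 and 5.07 at D28. Its differences were -0.80 ± 0.21 (SE, adjusted p = 0.018), -1.07 ± 0.21 (SE, adjusted p = 0.004) and -1.01 ± 0.21 (SE, adjusted p = 0.0047). Without 14.5 dpp replicate 2, the higher of the pair, all 3 calls were lost (adjusted p of the F test 0.115), as was the D16 call without D16 replicate 2 or 3 and the D28 call without D28 replicate 2 (differences of -0.75, -0.74 and -0.86). Mvd was lower at D22, with 5.11, 3.38 and 3.47 FPKM and a difference of -1.16 ± 0.15 (SE, adjusted p = 0.00047). Of the markers of other cell types, 5 of 6 of Leydig cells and 3 of 4 of peritubular and smooth muscle cells were called lower at each time, and 3, 2 and 2 of 4 endothelial and 2 of 5 macrophage markers tested higher. Leydig cell markers summed to 145 to 306 FPKM at 14.5 dpp and 14.7 to 36.8 FPKM over the 3 culture times, and Sertoli cell markers, with 1 of 8 called higher each time and 1 lower at D16, to 1859 to 2444 and 2404 to 4624 FPKM. Their part in the result was not tested.

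For most other genes the difference from 14.5 dpp at D28 had an interval that included 0. It was -0.27 (95% interval -0.95 to 0.40) for Hmgcs1, 0.08 (95% interval -0.41 to 0.56) for Msmo1 and -0.24 (95% interval -0.71 to 0.24) for Cyp51. For Insig1 it was 0.03 (95% interval -0.40 to 0.45), for Stard4 -0.02 (95% interval -0.42 to 0.38) and for Fasn 0.26 (95% interval -0.08 to 0.59). Differences up to the ends of these intervals are not excluded. Idi1, at 28.6 and 35.1 FPKM at 14.5 dpp and 11.3, 23.3 and 16.8 FPKM at D28, differed by -0.91 (95% interval -1.45 to -0.36) and did not pass the F test. By the F test alone 8 genes passed (33.6% of all genes), of which Pmvk, Srebf1, Scap and Scd were higher and Mvd, Nsdhl, Hsd17b7 and Srebf2 lower at each time. Of the other genes of the pathway, 1 of 29 rose each time, Mylip, by 1.37 ± 0.11 (SE) at D28.

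In vivo, 31 of 32 genes varied over the 6 ages by the F test and a 2-fold range, all but Lss. This is close to the 90.2% of all genes that did so. The group mean was highest at 14.5 dpp for 18 genes, at 24.5 dpp for 5, at 30.5 and 53.5 dpp for 3 each, at 8.5 dpp for 2 and at 36.5 dpp for 1. It was lowest at 53.5 dpp for 25. Such counts were not made over all genes. The median difference of all genes tested was also negative at each step after 14.5 dpp, at -0.13, -0.32, -0.18 and -0.25. Fasn was at 86.1 ± 13.6 FPKM (SD, n = 2) at 14.5 dpp and at 6.73 ± 0.863 FPKM (SD, n = 3) at 53.5 dpp. Srebf1 was at 13.1 ± 0.701 FPKM (SD, n = 2) and at 2.58 ± 0.272 FPKM (SD, n = 3), and Scap at 31.4 ± 3.88 FPKM (SD, n = 2) and at 4.48 ± 0.0237 FPKM (SD, n = 3). The libraries of the pair of ages did not overlap for these genes. From 8.5 to 14.5 dpp 5 genes rose, Mvd, Hsd17b7, Srebf2, Acaca and Fads2, and 0 fell (8.37% and 6.32% of all genes). Mvd was at 4.47, 3.51 and 5.43 FPKM and then at 9.55 and 10.6 FPKM, and Srebf2 at 17.7, 16.9 and 16.4 and then 36.9 and 33.7 FPKM. The call of Acaca was lost without 8.5 dpp replicate 1 or 2 (adjusted p of 0.062 and 0.061), without 14.5 dpp replicate 2 (0.29) and with quantile normalization (0.094) or median-ratio scaling (0.084), and that of Srebf2 without 14.5 dpp replicate 1 (a difference of 0.95). From 14.5 to 24.5 dpp Lpin1 rose and Pmvk, Nsdhl, Hsd17b7 and Dhcr7 fell, 1 and 4 genes (14.2% and 21.4%). The calls of Pmvk, Hsd17b7 and Dhcr7 were each lost when single libraries were left out (differences of -0.79 to -1.03).

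The step with the most calls, among these genes as among all genes, was that from 24.5 to 30.5 dpp. There 2 genes rose and 9 fell (13.1% and 24.5% of all genes), so the share that fell was near the background. Those that fell were Acat2, Nsdhl, Hsd17b7, Dhcr7, Srebf1, Scap, Acly, Fasn and Fads2. Scap was at 24.8, 24.1 and 32.8 FPKM at 24.5 dpp and 10.5, 7.67 and 8.64 FPKM at 30.5 dpp, and Fasn at 47.5, 46.8 and 52.4 and 19.5, 14.2 and 16.6 FPKM. The median difference was -0.58, against -0.32 for all genes tested. From 30.5 to 36.5 dpp Lpin1 rose and Scd fell (6.08% and 1.40% of all genes), and from 36.5 to 53.5 dpp Lpin1 rose and Ebp fell (2.62% and 3.93%). With median-ratio scaling, which moved the median of all genes at 30.5 dpp to 0.01, the genes called higher and lower were 2 and 0 at 14.5 dpp, 1 and 1 at 24.5 dpp, 3 and 4 at 30.5 dpp, 2 and 0 at 36.5 dpp and 3 and 0 at 53.5 dpp, each against the age before. The calls of Acat2, Nsdhl, Hsd17b7, Dhcr7 and Srebf1 at 30.5 dpp were lost. With single libraries left out, those of Nsdhl and Hsd17b7, and of Fdft1 and Lpin1, which rose, were lost without 24.5 dpp replicate 3, and some of them also without 24.5 dpp replicate 1 or 2 or 30.5 dpp replicate 2 or 3. With quantile normalization the counts were 2 and 4 at 30.5 dpp and 1 and 0 at both later ages. Spermatocyte markers summed to 16.3 to 17.9 FPKM at 8.5 dpp and to 1623 to 2297 at 24.5 dpp, and Sertoli cell markers to 1859 to 2444 at 14.5 dpp and 335.2 to 463 at 53.5 dpp. Their part in the result was not tested.

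A few genes had their highest levels in older testes. Lpin1 was at 0.424, 0.431 and 0.613 FPKM at 8.5 dpp, 4.92, 4.45 and 3.04 at 24.5 dpp, 18.7, 19.7 and 16.0 at 36.5 dpp and 57.8, 53.4 and 49.8 at 53.5 dpp. The 24.5 dpp testes lay above all younger ones and the 53.5 dpp testes above all others, and in culture Lpin1 stayed between 0.653 and 1.21 FPKM. Fdps was at 48.5, 66.3 and 50.5 FPKM at 30.5 dpp and at 168, 151 and 169 FPKM at 53.5 dpp, the level of D6. Cyp51 was at 16.0, 19.5 and 16.3 FPKM at 30.5 dpp and 28.6, 44.9 and 54.1 FPKM at 53.5 dpp. The 14.5 dpp testes of Cyp51, at 28.8 and 32.4 FPKM, lay within that last range. Neither Fdps nor Cyp51 was called higher in the step to 36.5 dpp or in that to 53.5 dpp. Fdft1 had its highest mean in vivo at 30.5 dpp, with 84.1, 106 and 116 FPKM, and Sqle at 36.5 dpp, with 44.7, 35.7 and 39.4 FPKM. For both Fdft1 and Sqle these libraries overlapped those of the next age. These 4 enzymes stand on either side of squalene, whereas Msmo1, downstream of Cyp51, was at 45.6 and 51.9 FPKM at 14.5 dpp and 5.78, 7.0 and 7.20 FPKM at 53.5 dpp. Fdps and Cyp51 have processed pseudogenes, and how reads shared with copies were counted is uncertain.

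Culture was last compared with testes of the same age. At D16 against 24.5 dpp, 6 of 32 genes were higher and 2 lower (25.3% and 18.3% of all genes). At D22 against 30.5 dpp the counts were 15 and 2 of 31 (42.1% and 22.9%), and at D28 against 36.5 dpp 18 and 1 of 31 (46.7% and 23.6%). The median differences of the genes were 0.35, 0.96 and 1.25, and those of all genes tested 0.12, 0.51 and 0.64. The share of all genes called was higher at the later ages too. Median-ratio scaling gave splits of 4 and 2, 11 and 3, and 11 and 6, and at D28 a median of 0.49 against 0.03 for all genes. Srebf1 was at 4.08, 3.46 and 3.15 FPKM at 36.5 dpp and 51.9, 39.2 and 39.5 FPKM at D28, a difference of 3.28 ± 0.15 (SE, adjusted p = 6.5e-07). Scap was at 8.32, 7.20 and 6.50 and 69.0, 70.3 and 70.5 FPKM, a difference of 3.09 ± 0.11 (SE, adjusted p = 2.3e-07), and Fasn at 12.3, 12.3 and 10.5 and 97.1, 92.4 and 119.6 FPKM, a difference of 3.03 ± 0.13 (SE, adjusted p = 6.1e-07). These 3 genes were called higher at D16, D22 and D28 against their ages, as were Me1, Pmvk and Scd. With median-ratio scaling Fasn and Me1 lost their D16 calls (1.002 and 0.9995) and Me1 its D22 call too (0.78), and Me1 lost its D16 call with quantile normalization (1.03). Scd and Srebf1 were also called at D6 against 14.5 dpp.

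By role at D28, 7 of 8 fatty acid and glycerolipid genes were higher than at 36.5 dpp, and 4 of 6 that sense or carry sterols. In the mevalonate arm 3 of 7 were higher, and from squalene to cholesterol 4 of 10. Over all genes the share was 46.7%, so these last roles lay near the background. Msmo1 was at 9.35, 8.75 and 9.09 FPKM at 36.5 dpp and 36.7, 71.8 and 51.4 FPKM at D28, a difference of 2.38 ± 0.22 (SE, adjusted p = 3.2e-05). Dhcr7 was at 8.06, 6.18 and 5.60 and 38.0, 34.8 and 38.1 FPKM, a difference of 2.33 ± 0.14 (SE, adjusted p = 2.6e-06). Acly was at 7.18, 7.30 and 7.13 and 29.7, 44.4 and 41.3 FPKM, a difference of 2.25 ± 0.16 (SE, adjusted p = 6.0e-06). No D28 library of these genes was as low as a 36.5 dpp library. Fads2, at 17.5, 9.52 and 8.04 and 45.4, 59.7 and 68.1 FPKM, differed by 2.26 ± 0.28 (SE, adjusted p = 0.00016), and Stard4, at 3.08, 2.87 and 2.66 and 10.5, 17.8 and 15.7 FPKM, by 1.99 ± 0.19 (SE, adjusted p = 3.0e-05). Both genes were again free of overlap. Lpin1 alone was called lower, with a difference of -3.32 ± 0.11 (SE, adjusted p = 1.5e-07), at 0.933, 0.940 and 0.853 FPKM in culture. Sqle was at 14.4, 22.1 and 21.1 FPKM at D28, below every 36.5 dpp library, with a difference of -1.03 ± 0.18 (SE, adjusted p = 0.00096) that missed the 2-fold ratio. Fdps and Mvd differed by -0.72 ± 0.11 (SE, adjusted p = 0.00043) and -0.77 ± 0.13 (SE, adjusted p = 0.00073), and Cyp51 by -0.02 (95% interval -0.55 to 0.52). Acaca, Acat2, Ebp, Hmgcs1, Me1, Pmvk and Srebf2 lost their calls with median-ratio scaling. Acat2, Hmgcs1 and Pmvk were all 3 genes called in the mevalonate arm. Of the other genes of the pathway, 20 of 28 were higher at D28 and 3 lower, Dgat1 and Dgat2 among them. Scd2, among those higher, differed by 3.17 ± 0.14 (SE). All 8 Sertoli cell markers were called higher at D28, with sums of 561 to 704 FPKM at 36.5 dpp and 3827 to 4624 at D28. Spermatid markers summed to 4095 to 5859 and to 4.54 to 6.26 FPKM, all 7 called lower. Leydig cell markers summed to 228 to 379 and to 24.4 to 36.8 FPKM, 4 of 6 called lower. Their part in the result was not tested.

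**Figure D5:**
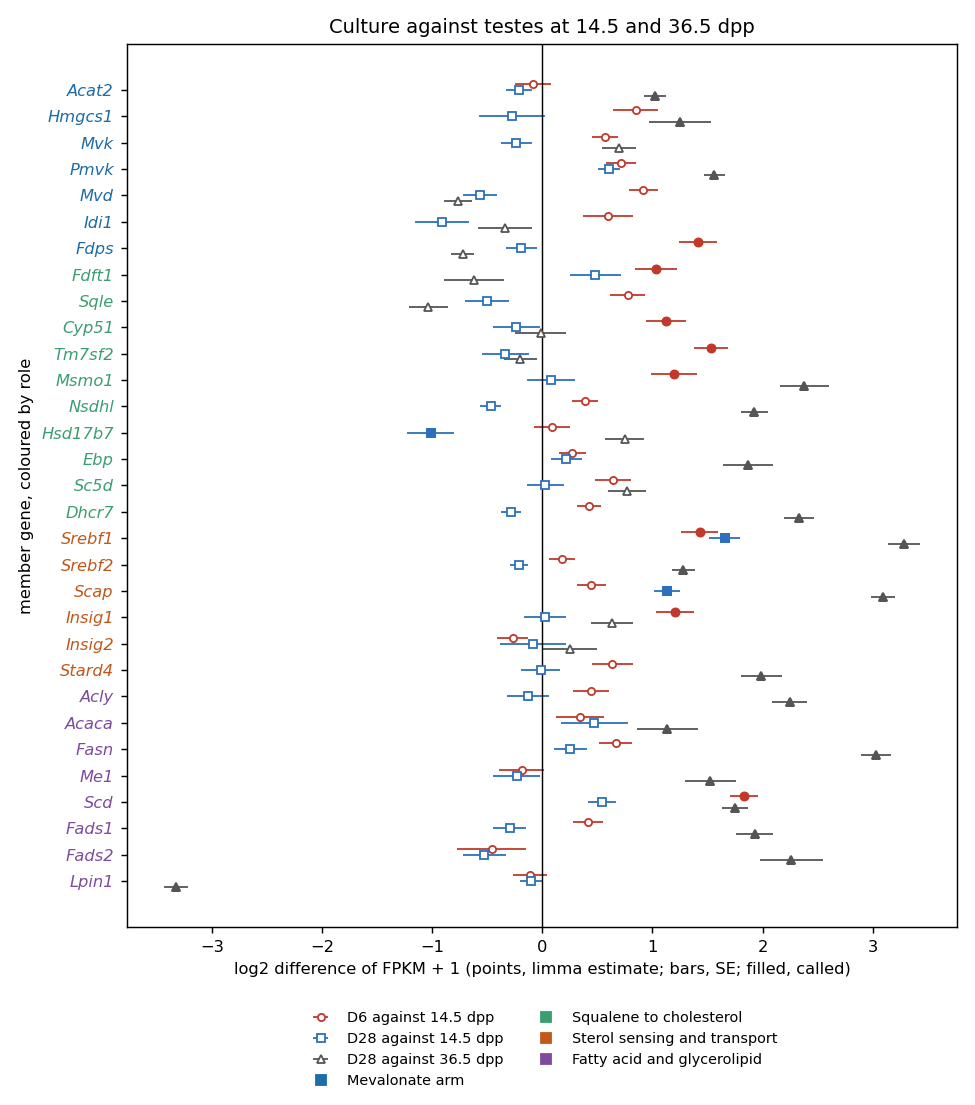
Log2 difference of FPKM + 1 of the genes tested in all 3 comparisons shown, D6 against 14.5 dpp (circles), D28 against 14.5 dpp (squares) and D28 against 36.5 dpp (triangles), with the standard error as a bar and called genes filled. Filled squares are Srebf1 and Scap to the right of 0 and Hsd17b7 to the left, while filled triangles, 18 in all, lie to the right and that of Lpin1 at -3.32 to the left.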

How the data were processed

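RNA of rat testes and cultured testicular explants was sequenced from poly(A) libraries. Per the labels and the methods of the study, the authors called bases with bcl2fastq 2.17.1.14, aligned reads to the rat build rn6 with STAR 2.5.2a, assembled and quantified them with StringTie and Ballgown, and deposited FPKM per gene for 30 libraries. Genes of 17172 of the 17322 Entrez Gene identifiers were found in a RefSeq gene table (GRCr8), which gave symbols and promoters. The library that the study had excluded, listed at 0, was left out. Depth is unknown, so the precision rests on the spread between libraries.

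The deposited FPKM were analysed as log2(FPKM + 1), over genes whose median reached 0.5 FPKM in any group compared. Tests used limma 3.58.1 (R 4.3.3, without a block), with Benjamini-Hochberg adjustment over all genes tested. D16, D22 and D28 against 14.5 dpp used 1 F test in a fit of 4 groups, as in the study, which left D6 out of its own testing. Other comparisons used the groups compared, and the in vivo ages and the culture times 1 fit each, with the steps as moderated contrasts. Calls needed an adjusted p no higher than 0.05 and group medians that differed by 2-fold or more. The procedure was tested on simulated data. Any of the 33 genes could be named, and other genes only from the lists of pathway genes and cell type markers. Some listed pathway genes are counted but not reported here by name. Genes, lists and tests were chosen with earlier results of these data known. Alternatives changed the pseudocount, filter, fold, prior variance, scaling, libraries in the fit and replicate block, and left out each library. Alternatives for the steps between neighbouring ages or culture times and for the difference between culture effects were added after seeing the data. Python 3.11.15, pandas 2.3.3, numpy 2.4.6 and matplotlib 3.10.9 served for summaries and figures.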

Additional observations from a re-analysis of the deposited data

Results flagged for a closer look

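Culture effects at the youngest and the oldest matched age were compared gene by gene as the difference between D28 against 36.5 dpp and D6 against 14.5 dpp on the log2(FPKM + 1) scale, with an interaction contrast in limma over these 4 groups. The tested difference had an adjusted p of at most 0.05 for 24 of 32 genes and, over all genes, for 76.5%, so the share of these genes was near the background. The median difference over all genes was 0.63. In this comparison the D28 effect was more positive for 16 genes. Among fatty acid and glycerolipid genes the difference was 2.72 for Fads2, 2.36 for Fasn, 1.80 for Acly, 1.71 for Me1 and 1.52 for Fads1. Among genes that sense or carry sterols it was 2.65 for Scap, 1.85 for Srebf1, 1.35 for Stard4 and 1.10 for Srebf2. Among late sterol enzymes it was 1.91 for Dhcr7, 1.60 for Ebp, 1.54 for Nsdhl, 1.18 for Msmo1 and 0.66 for Hsd17b7, and in the mevalonate arm it was 1.10 for Acat2 and 0.85 for Pmvk.

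The D28 effect was more negative for 8 genes. The difference was -3.21 for Lpin1, -2.14 for Fdps, -1.81 for Sqle, -1.73 for Tm7sf2, -1.68 for Mvd, -1.65 for Fdft1, -1.14 for Cyp51 and -0.94 for Idi1. Of these, Fdps, Sqle and Mvd had adjusted p-values of at most 0.05 in opposite directions, above 14.5 dpp at D6 and below 36.5 dpp at D28. With median-ratio scaling 23 genes had an adjusted p of at most 0.05, 11 of them more positive and 12 more negative at D28, and the median difference over all genes was 0.02. Under that scaling the difference was 0.01 for Hsd17b7 (adjusted p = 0.96), 0.34 for Msmo1 (0.36), 0.25 for Srebf2 (0.13) and 0.62 for Stard4 (0.061). That of Hsd17b7 also missed the threshold with quantile normalization (0.19, adjusted p = 0.53), with the replicate block (0.054) and when any 1 of 7 libraries was left out, as at 0.48 (adjusted p = 0.16) without 14.5 dpp replicate 2. That of Msmo1 missed it with quantile normalization (adjusted p = 0.051). That of Idi1, at an adjusted p of 0.042 with all libraries, missed it with a pseudocount of 0.1 FPKM (0.053), with no filter on low values (0.060) and when any 1 of 8 libraries was left out, namely 14.5 dpp replicate 1 (0.136) or 2, 36.5 dpp replicate 2 or 3, D6 replicate 1 or 2 and D28 replicate 1 or 3 (0.053 to 0.094).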

How the results depend on the processing

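Of the 13 counts of called genes given for whole comparisons, those at D6 against 8.5 dpp, at D28 against 36.5 dpp, over in vivo ages and of the difference between culture effects stayed within 1.5 times under every alternative run. Needing no 2-fold ratio raised the counts to 8 each for D16, D22 and D28 against 14.5 dpp, 15 at D6 against 14.5 dpp, 22 at D16 against 24.5 dpp, 26 at D22 against 30.5 dpp, 21 over culture times, 19 at D16 against D6 and 21 at D28 against D6. Quantile normalization left 1 gene at D16 against 14.5 dpp. With each library left out in turn, the counts ranged from 1 to 3 for D16, 3 to 5 for D22 and 3 to 3 for D28 against 14.5 dpp, from 4 to 8 at D6 against 14.5 dpp, from 8 to 8 at D16 against 24.5 dpp, from 17 to 18 at D22 against 30.5 dpp and from 19 to 21 at D28 against 36.5 dpp. They ranged from 18 to 21 at D6 against 8.5 dpp, 30 to 32 over in vivo ages, 10 to 12 over culture times, 8 to 11 at D16 against D6, 10 to 11 at D28 against D6 and 22 to 25 for the difference between culture effects. The count at D22 was 5 without 14.5 dpp replicate 2. The difference between culture effects of Pmvk changed sign with median-ratio scaling, to -0.0055 (adjusted p = 0.976), and the cause was not tested.

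Same-numbered libraries did not deviate together (correlations of -0.13 to 0.22), so the replicate numbers were taken as names. With the replicate number as a block, 7 genes were called at D6 against 14.5 dpp, with Fdft1 lost (adjusted p = 0.062), and the counts of the other comparisons with testes were 20 at D6 against 8.5 dpp, 2, 3 and 3 at D16, D22 and D28 against 14.5 dpp and 8, 17 and 19 at D16, D22 and D28 against their ages. Steps between in vivo ages depended most on single libraries. From 24.5 dpp against 14.5 dpp 3 genes instead of 5 were called without 14.5 dpp replicate 2, 24.5 dpp replicate 1 or 24.5 dpp replicate 2. The 2 genes called at 36.5 against 30.5 dpp became 0 without 30.5 dpp replicate 3 or 36.5 dpp replicate 2 and 1 without 30.5 dpp replicate 1 or 36.5 dpp replicate 3, and the 2 at 53.5 against 36.5 dpp became 1 without replicate 1 or 2 of either age. Depth is unknown, so no limit from counting can be given for the genes listed at 0.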
